A study of Homo sapiens with 8 samples.

Results

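The 10 genes described here act in insulin and IGF signalling and in the sensing of glucose. They are the receptors INSR and IGF1R, the receptor substrates IRS1 and IRS2, the transcription factors FOXO1 and FOXO3, the IGF-binding protein gene IGFBP3, MLXIP (which encodes MondoA), and the MondoA targets TXNIP and ARRDC4. They were chosen by symbol as genes known to respond to nutrient withdrawal, with earlier results of these data known. Their Ensembl identifiers were looked up in the expression tables of both cell lines. All 10 were found in both, among 25431 genes listed for 769-P and 24190 for CAKI-1, and all 10 passed the filter on low values in each line.

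The measurements are RNA-seq of 769-P and CAKI-1, established human lines of clear cell renal cell carcinoma (RCC). Cells of each line were kept for 16 hours in medium without branched-chain amino acids (BCAA) or in medium given leucine (0.38 mM), isoleucine (0.38 mM) and valine (0.17 mM). The data hold 2 libraries per line and condition, fewer than the n given in the study's legend for its RNA-seq. The study's methods describe the depleted medium as amino acid–free RPMI 1640 with dialyzed serum and do not say which other amino acids were returned to it. Before treatment, 769-P was grown in RPMI 1640 and CAKI-1 in MEM, so that the lines also differ in their usual medium. No gene was altered in any group.

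Insulin and IGF receptors on the cell surface phosphorylate IRS1 and IRS2, which pass the signal to PI3K and AKT. AKT in turn keeps FOXO factors out of the nucleus, where they would switch on genes of fasting and stress, IRS2 and INSR among them. MondoA answers to glucose 6-phosphate and drives TXNIP and ARRDC4, a pair of alpha-arrestins that lower glucose uptake.

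Each value is a normalised read count, which is the number of reads on a gene divided by a size factor of the library. The size factors were set separately in the table of each cell line, so levels were compared between conditions within a line. A library held between 30979773 and 64256834 reads on these genes. In 769-P the libraries with BCAA were the deeper ones (64256834 and 55829324 reads, against 39062721 and 40130258 without), and reads thinned to equal depth left every call on the 10 genes as it was in that line. Of the renal carcinoma markers, PAX8, VIM, KRT8 and KRT18 were well expressed in both lines. With BCAA, PAX8 was called lower (log2 fold change -0.64) and KRT8 higher (0.18) in 769-P. VIM (-0.65) and KRT18 (-0.27) were called lower in CAKI-1. PAX8 and KRT8 were not called in CAKI-1, and nor were VIM and KRT18 in 769-P. PAX2 had normalised counts of 1165 and 1172 with BCAA and 932.8 and 984.4 without in 769-P, where it was called higher. PAX2 was not among the genes listed for CAKI-1. NDUFA4L2 had a normalised count of at most 2.57 in any 769-P library. In CAKI-1 it had 88.5 and 104 with BCAA and 204 and 216 without, and was called lower (-1.12). CA9 was not among the genes listed for either line. Of 8 markers of leukocytes, endothelium and stroma, CD3E and CDH5 were not listed for either line. PTPRC, CD68, PECAM1 and VWF had at most 10.3 in any library, or were not listed for that line. The stromal gene PDGFRB was present in both lines and was called higher with BCAA in both. It had 151.6 and 152.2 with BCAA and 33.5 and 48.9 without in 769-P. In CAKI-1 it had 1607 and 1170 with BCAA and 911 and 920 without. DCN, the other stromal gene, had at most 2.45 in 769-P, and in CAKI-1 it had 26.3 and 29.1 with BCAA and 39.9 and 50.2 without, which was not called (-0.68). Summed over the list, the markers came to 169 and 166 with BCAA and 38.5 and 52.6 without in 769-P, and to 1634 and 1202 with BCAA and 959 and 975.4 without in CAKI-1. Most of each sum was PDGFRB. The part of these markers in the results was not tested. In bulk RNA, fewer cells of a type and less RNA per cell cannot be told apart.

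With BCAA present, most of the 10 genes changed in each line. In 769-P, 3 rose (IRS1, IGFBP3 and MLXIP), 6 fell (INSR, IGF1R, IRS2, FOXO3, TXNIP and ARRDC4) and FOXO1 was not called. In CAKI-1 the same 3 rose, 5 fell (INSR, FOXO1, FOXO3, TXNIP and ARRDC4), and IGF1R and IRS2 were not called. A gene was called at an adjusted p under 0.05 in limma on log2(normalised count + 1), with Benjamini-Hochberg adjustment over all genes tested in the line. Calls were common in the data as a whole. In 769-P, 20.3% of 22391 tested genes were called higher and 18.2% lower, and in CAKI-1, 10.8% of 21347 were called higher and 9.05% lower. The median log2 fold change of the 10 genes was -0.48 in 769-P and -0.22 in CAKI-1, beside -0.02 and -0.01 over all tested genes.

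The same direction was called in both lines for 7 of the 10 genes. INSR, FOXO3, TXNIP and ARRDC4 were lower with BCAA in both, a pattern found in 5.83% of the 19406 genes tested in both lines. IRS1, IGFBP3 and MLXIP were higher in both, as were 8.53% of those genes. In each line the 2 libraries with BCAA lay wholly on one side of the 2 without for 9 of the 10 genes. That was also the case for 67% of all tested genes in 769-P and for 57.7% in CAKI-1. The exceptions were FOXO1 in 769-P and IGF1R in CAKI-1. The labels do not say that libraries of a condition came from separate cultures, so the p-values measure only the spread between these libraries. An exact permutation test of 2 against 2 libraries cannot give a p below 0.333, which is why the spread was estimated across genes. In 769-P, limma called 1 of the 10 genes higher and 5 lower without replicate 1 with BCAA, 2 and 3 without replicate 2 with BCAA, 1 and 4 without replicate 1 lacking BCAA, and 1 and 3 without replicate 2 lacking BCAA. IRS2, TXNIP, ARRDC4 and IGFBP3 were called in all 4 of these fits, and edgeR with a library left out called 3 higher and 5 or 6 lower. With any 1 of the 4 CAKI-1 libraries left out, limma called 0 genes in that line at all, although between 2236 and 2879 genes were higher and between 1848 and 2711 lower at an unadjusted p under 0.05. Of the 10 genes, 3 were then higher and between 3 and 5 lower at that unadjusted p, while edgeR on the recovered reads still called 3 higher and 4 or 5 lower.

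**Figure D1:**
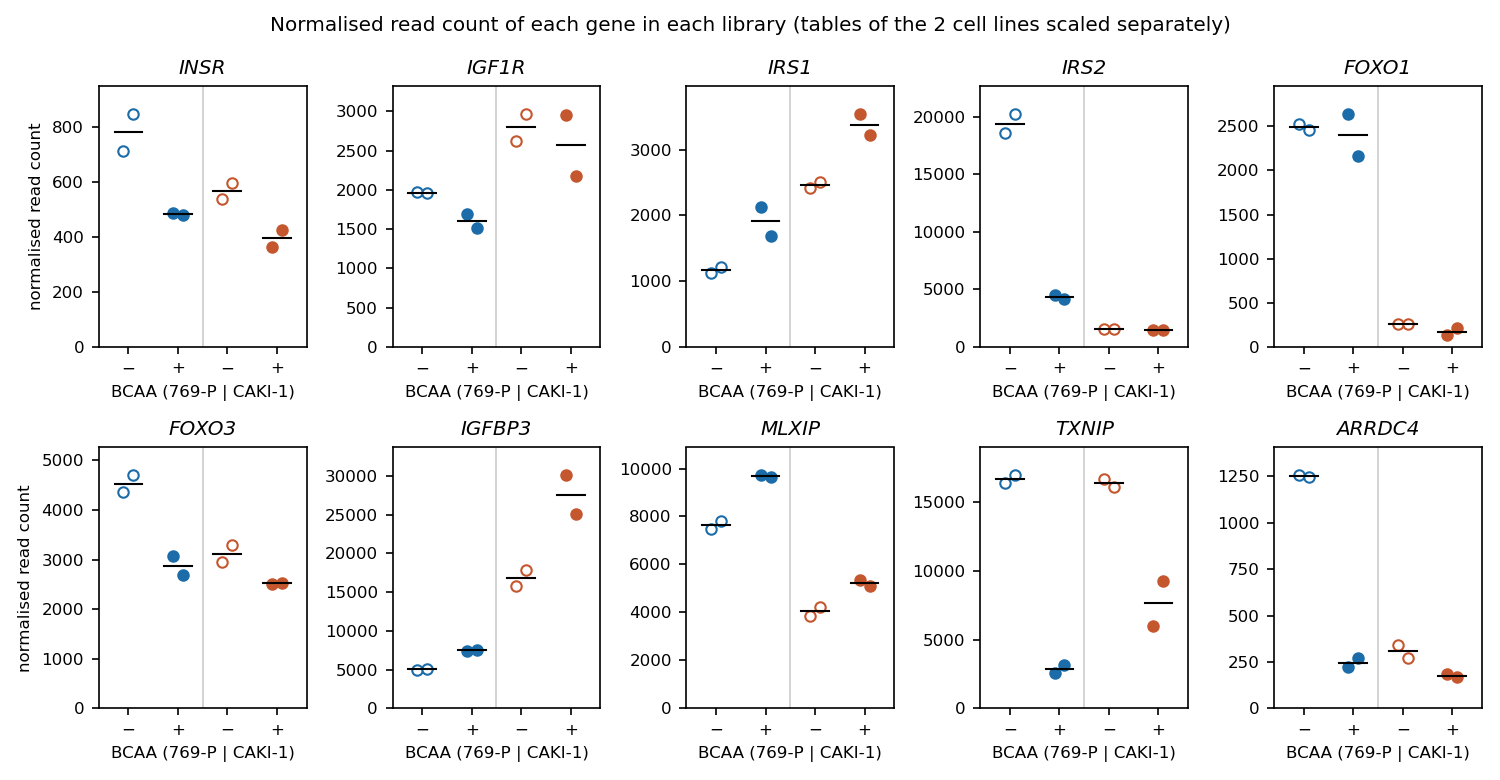
Normalised read count (vertical axis, starting at 0, a separate scale per gene) of the 10 genes in each of the 8 libraries. Open circles are libraries without BCAA and filled circles those with BCAA, blue for 769-P and orange for CAKI-1, and the bar is the mean of 2 libraries. IRS2, TXNIP and ARRDC4 in 769-P have their filled circles far below their open ones, and in CAKI-1 IRS2 is nearly level.

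Expression of the insulin receptor was lower with BCAA in both lines. In 769-P, INSR (chromosome 19, 7112255 to 7294034, minus strand, GRCh38) had normalised counts of 488 and 479 with BCAA and 714 and 849 without. In CAKI-1 the counts were 365 and 426 with BCAA and 537 and 597 without. In both lines every library with BCAA was below every library without. INSR fell by 0.69 on the log2 scale in 769-P (SE 0.10, adjusted p = 1.63e-04) and by 0.52 in CAKI-1 (SE 0.12, adjusted p = 0.00857).

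The IGF1 receptor moved less. IGF1R (chromosome 15, 98648539 to 98964530, plus strand) binds IGF1 and IGF2 and phosphorylates the same substrates as the insulin receptor. Its normalised counts in 769-P were 1698 and 1508 with BCAA and 1970 and 1957 without, a fall of modest size in which the groups did not overlap. The log2 fold change was -0.29 (SE 0.07, adjusted p = 0.0047). The call was lost in 5 of 20 alternative settings, among them 1 spread fitted over all 8 libraries (adjusted p = 0.0501). With 1 library left out, the log2 fold change ran from -0.38 to -0.206. In CAKI-1 the counts were 2953 and 2179 with BCAA and 2622 and 2966 without. Here the 2 libraries with BCAA lay farther apart than the group means, and the groups overlapped. The log2 fold change of -0.14 was not called, and its 95% confidence interval ran from -0.40 to 0.12. Without replicate 1 with BCAA it was -0.37 in edgeR and called (adjusted p = 1.19e-05), and without replicate 2 with BCAA it was 0.07 and not called (adjusted p = 0.563).

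The receptor substrates went opposite ways in 769-P. IRS1 and IRS2 are docking proteins that are phosphorylated by both receptors, and IRS2 is the more strongly regulated by fasting in liver. IRS1 (chromosome 2, 226731317 to 226799759, minus strand) had normalised counts of 2132 and 1687 with BCAA and 1123 and 1220 without in 769-P. Both libraries with BCAA were above both without, although they differed from each other by more than the libraries without did. IRS1 rose by 0.70 on the log2 scale (SE 0.10, adjusted p = 1.09e-04). In CAKI-1 its counts were 3545 and 3220 with BCAA and 2423 and 2516 without. The rise there was 0.45 (SE 0.07, adjusted p = 8.29e-04), again with no overlap.

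IRS2 fell steeply in 769-P and not in CAKI-1. In 769-P, IRS2 (chromosome 13, 109752698 to 109786568, minus strand) had normalised counts of 4530 and 4111 with BCAA and 18533 and 20222 without. The libraries without BCAA therefore held more than 4 times as much, 4.49-fold by the fit, with a log2 fold change of -2.17 (SE 0.06, adjusted p = 1.46e-10). Among the 11855 genes with a mean of at least 100 in 769-P, this ranked 50 from the most negative. These values rested on 5975 and 4808 reads with BCAA and 14921 and 16536 without, so the raw reads moved the same way in spite of the greater depth with BCAA. In CAKI-1 the normalised counts were 1440 and 1466 with BCAA and 1564 and 1561 without. The groups did not overlap, but the log2 fold change of -0.10 was not called (SE 0.07, adjusted p = 0.345, 95% confidence interval -0.26 to 0.05). The exons of IRS2 share 115 bases (1.41%) with the antisense gene AL162497.1, and whether the counting used strand is not given in the sources used here.

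Of the FOXO factors, FOXO3 fell with BCAA in both lines. FOXO3 (chromosome 6, 108559835 to 108684774, plus strand) had normalised counts of 3067 and 2689 with BCAA and 4360 and 4698 without in 769-P. All values without BCAA were the higher ones, and the log2 fold change was -0.66 (SE 0.07, adjusted p = 7.96e-06). In CAKI-1 the counts were 2510 and 2535 with BCAA and 2947 and 3293 without. The groups were again apart, with a smaller fall of 0.30 on the log2 scale (SE 0.07, adjusted p = 0.00974).

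FOXO1 (chromosome 13, 40469953 to 40666597, minus strand), the factor best known for hepatic glucose production, was much lower in CAKI-1 than in 769-P on the scales of the separately normalised tables. Its normalised counts in 769-P were 2640 and 2160 with BCAA and 2524 and 2460 without. The libraries with BCAA lay on both sides of those without, and the log2 fold change of -0.06 was not called (adjusted p = 0.606, 95% confidence interval -0.24 to 0.12). In CAKI-1 its counts were 136 and 208 with BCAA and 258.5 and 259.9 without. Both libraries with BCAA were lower, but they also differed more from each other than those without. The fall of 0.62 on the log2 scale (SE 0.19, adjusted p = 0.0434) lost its call in 11 of 20 alternative settings, among them a pseudocount of 5 (adjusted p = 0.0506), DESeq2 (adjusted p = 0.0594) and reads thinned to equal depth (adjusted p = 0.152). Without replicate 1 with BCAA the log2 fold change was -0.32 in limma and not called (adjusted p = 0.276), and without replicate 2 with BCAA it was -0.92 and not called in limma (adjusted p = 0.0846) and -0.94 and called in edgeR (adjusted p = 5.24e-05). FOXO1 shares 269 exon bases (4.32%) with LINC00598 on the same strand.

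IGFBP3 rose with BCAA in both lines. It encodes the main carrier of IGFs in blood, a secreted protein that holds IGF away from its receptor. In 769-P, IGFBP3 (chromosome 7, 45912245 to 45921874, minus strand) had normalised counts of 7454 and 7545 with BCAA and 4962 and 5075 without. The libraries of a condition were nearly level with each other, and the rise was 0.58 on the log2 scale (SE 0.04, adjusted p = 7.63e-07). In CAKI-1, where the gene was abundant, the counts were 30061 and 25110 with BCAA and 15831 and 17824 without. Each library with BCAA exceeded each without, and the rise was 0.71 (SE 0.08, adjusted p = 1.77e-04).

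MLXIP rose modestly in both lines. MLXIP (chromosome 12, 122078722 to 122147347, plus strand) encodes MondoA, which pairs with MLX on DNA elements called carbohydrate response elements. In 769-P its normalised counts were 9712 and 9635 with BCAA and 7480 and 7825 without, and in CAKI-1 they were 5346 and 5122 with BCAA and 3866 and 4232 without. The groups did not overlap in either line. The rise was 0.34 on the log2 scale in 769-P (SE 0.04, adjusted p = 6.10e-05) and 0.37 in CAKI-1 (SE 0.06, adjusted p = 0.0019).

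The promoters of TXNIP and ARRDC4 are shown because both genes are known to be bound by MondoA near their start. They are the bases before the RefSeq start in GRCh38.p14, 5′ to 3′ on the strand of the gene, without the last 21 (TXNIP) and 5 (ARRDC4) bases, which GENCODE places in an exon. TXNIP is at chr1:145996601-145996829 on the minus strand (229 bases) and ARRDC4 at chr15:97960453-97960697 on the plus strand (245 bases). The capitals mark motifs found in them.
TXNIP: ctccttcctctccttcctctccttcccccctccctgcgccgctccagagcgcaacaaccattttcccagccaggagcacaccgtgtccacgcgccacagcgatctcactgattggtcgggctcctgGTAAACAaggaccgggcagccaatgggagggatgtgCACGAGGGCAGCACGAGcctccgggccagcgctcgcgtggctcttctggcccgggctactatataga
ARRDC4: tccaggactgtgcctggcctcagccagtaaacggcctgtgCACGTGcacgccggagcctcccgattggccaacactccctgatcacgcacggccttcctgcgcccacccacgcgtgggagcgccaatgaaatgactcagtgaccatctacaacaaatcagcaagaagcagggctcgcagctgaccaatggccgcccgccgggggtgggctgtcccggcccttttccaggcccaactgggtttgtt
In TXNIP the capitals are GTAAACA, the core of a forkhead site, 124 to 118 bases before the start, and a pair of CACGNG half-sites with 5 bases between them, 88 to 72 bases before it. Such a pair, the form of a carbohydrate response element, was found on either strand in 22 of 27305 RefSeq promoters of 250 bases (0.0806%). In ARRDC4 the capitals are CACGTG, an E-box, 210 to 205 bases before the start, which 6.49% of the promoters held. GTAAACA was in 2.98% and TGATGNAA, a form of the element bound by ATF4 with C/EBP partners, in 3.19%. All 10 genes had an entry among the promoters, and the other 8 held none of the 4 motifs in the 250 bases before their start. CACGTG is itself a form of CACGNG, the motifs found do not overlap, and a match describes only these letters.

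TXNIP was the member with the largest fold change in both lines. It encodes a thioredoxin-binding arrestin that draws glucose transporters from the cell surface. In 769-P, TXNIP (chromosome 1, 145992435 to 145996600, minus strand) had normalised counts of 2583 and 3142 with BCAA and 16413 and 16943 without. The 2 conditions were far apart, 5.85-fold lower with BCAA, with a log2 fold change of -2.55 (SE 0.07, adjusted p = 3.14e-10). In CAKI-1 the counts were 6023 and 9268 with BCAA and 16670 and 16119 without. Levels without BCAA were thus close to each other, while those with BCAA were spread, and both were below. TXNIP was 2.19-fold lower there, a log2 fold change of -1.13 (SE 0.14, adjusted p = 2.69e-04), which ran from -1.46 to -0.82 when 1 library was left out. It ranked 31 of 11855 from the most negative log2 fold change in 769-P and 25 of 11720 in CAKI-1, among genes with a mean of at least 100.

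ARRDC4 followed TXNIP at a lower level. ARRDC4 (chromosome 15, 97960698 to 97973838, plus strand) encodes a close relative of TXNIP. Its normalised counts in 769-P were 221 and 272 with BCAA and 1255 and 1245 without. The values without BCAA were nearly equal, and those with BCAA, which rested on 292 and 318 reads, were 5.08-fold lower. The log2 fold change was -2.34 (SE 0.11, adjusted p = 9.96e-09). In CAKI-1 the counts were 186 and 166 with BCAA and 340 and 273 without. The groups did not overlap, and ARRDC4 was 1.73-fold lower, a log2 fold change of -0.79 (SE 0.16, adjusted p = 0.00434). It ranked 43 from the most negative in 769-P and 140 in CAKI-1.

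**Figure D2:**
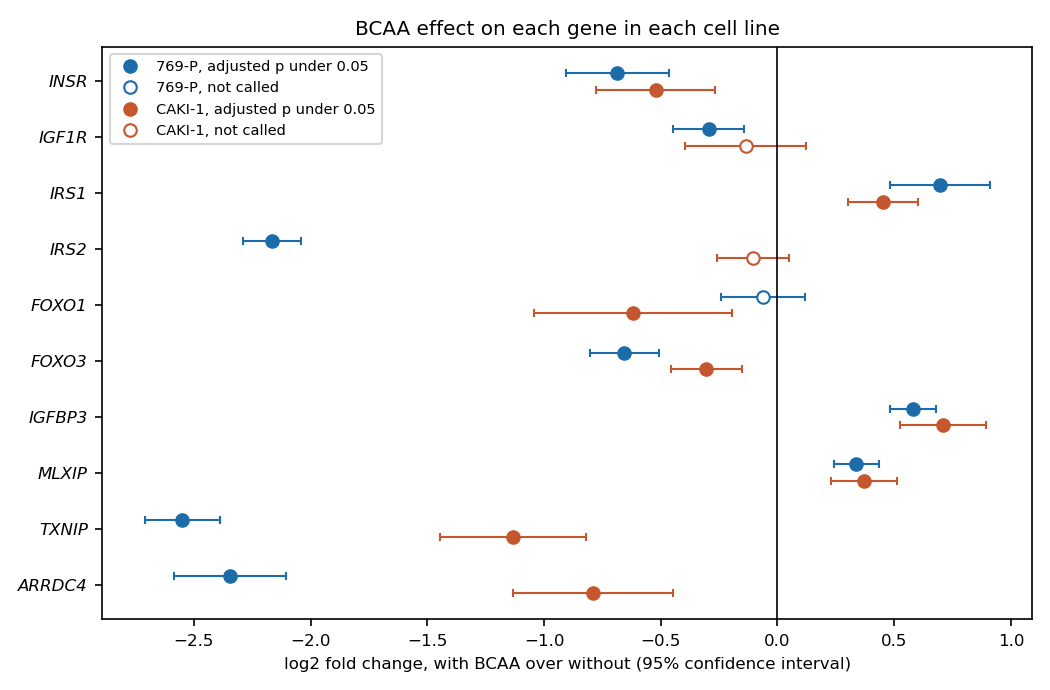
Log2 fold change with BCAA over without BCAA (horizontal axis) for each of the 10 genes, blue for 769-P and orange for CAKI-1, with 95% confidence intervals from limma. Filled points had an adjusted p under 0.05. IRS2, TXNIP and ARRDC4 in 769-P lie below -2, and no point for CAKI-1 lies below TXNIP at -1.13.

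The BCAA effect differed between the lines for 4 of the 10 genes, each of them further down in 769-P. The difference was tested as an interaction in 1 limma fit over the 8 libraries, and 10.1% of 19406 genes were called further down in 769-P and 10.9% further up. IRS2 differed most, by -2.06 (SE 0.09, adjusted p = 5.19e-09). The difference was -1.55 for ARRDC4 (SE 0.20, adjusted p = 9.97e-05) and -1.42 for TXNIP (SE 0.20, adjusted p = 1.88e-04). For FOXO3 it was -0.35 (SE 0.10, adjusted p = 0.0268), a call that was lost under median centring (adjusted p = 0.0547) and in 7 of the 16 fits with 1 library left out.

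No difference was called for the other 6. The adjusted p was 0.0881 for FOXO1, whose difference of 0.56 had a 95% confidence interval from 0.09 to 1.03. For IRS1 the difference was 0.24 (interval -0.04 to 0.53, adjusted p = 0.228). INSR and IGF1R had differences of -0.16 each, with intervals from -0.52 to 0.19 and from -0.50 to 0.18. The intervals were narrower for IGFBP3 (-0.36 to 0.10) and MLXIP (-0.20 to 0.13), which rose in both lines.

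**Figure D3:**
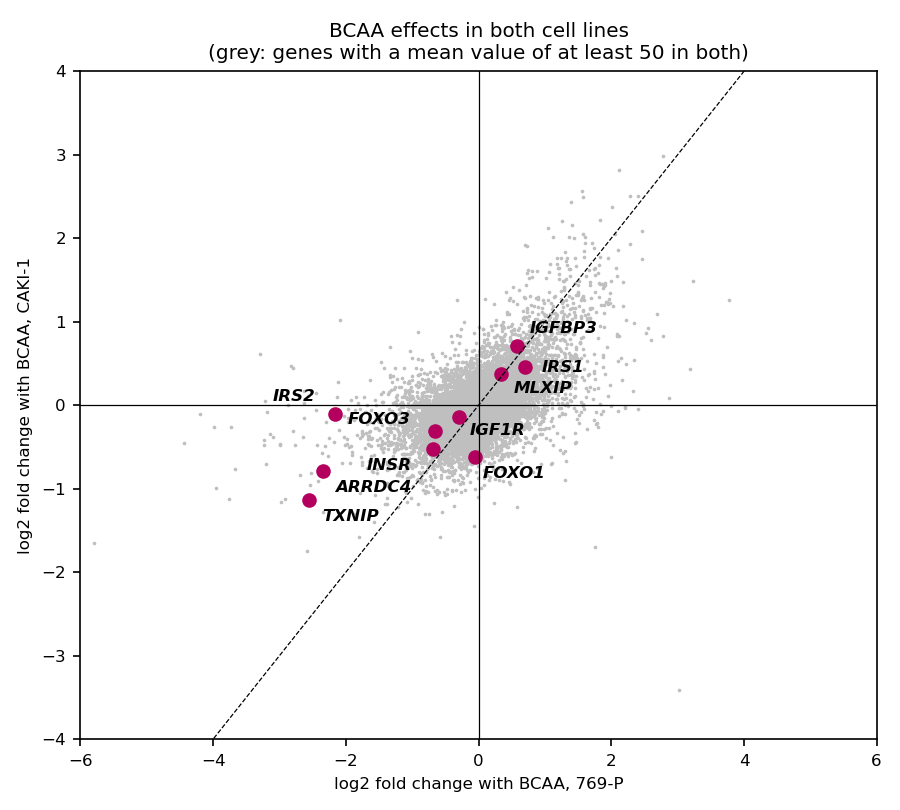
Log2 fold change with BCAA in 769-P (horizontal axis) against CAKI-1 (vertical axis). Grey points are genes with a mean normalised count of at least 50 in both tables, purple points the 10 genes, and the dashed line marks equal effects. IRS2 lies near 0 on the CAKI-1 axis at -2.17 in 769-P, ARRDC4 and TXNIP lie left of the dashed line, and IRS1, IGFBP3 and MLXIP lie in the upper right quadrant.

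Levels of different genes were compared per kilobase of exon, again on each line's own scale. Without BCAA, TXNIP had the highest normalised count per kilobase of the 10 genes in 769-P (4601 ± 103, SD, n = 2), followed by IRS2 (2381 ± 147) and IGFBP3 (1098 ± 17.5). FOXO3, MLXIP, FOXO1, ARRDC4, IGF1R, IRS1 and INSR came below, down to 74.8 ± 9.10 for INSR. With BCAA the order changed in 769-P. IGFBP3 then led with 1641 ± 14.04 per kilobase, TXNIP followed with 790 ± 109 and MLXIP with 696 ± 3.93, and IRS2 was next with 531 ± 36.4. FOXO1 (385 ± 54.5) and FOXO3 (373 ± 34.7) came below it and did not differ beyond their spread. ARRDC4 went from above IGF1R and IRS1 to below both, at 60.6 ± 8.78.

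In CAKI-1 the same 2 genes were at the top in both conditions. Without BCAA these were TXNIP (4523 ± 108 per kilobase, SD, n = 2) and IGFBP3 (3681 ± 308), and with BCAA they were IGFBP3 (6035 ± 766) and TXNIP (2109 ± 633). FOXO3, MLXIP and IRS1 followed in each condition. With BCAA, IRS1 (340 ± 23.1) and FOXO3 (327 ± 2.32) overlapped. IGF1R and IRS2 also overlapped, both without BCAA (200 ± 17.5 and 192 ± 0.296) and with it (184 ± 39.2 and 179 ± 2.28). FOXO1 was the lowest of the 10, at 41.6 ± 0.163 without BCAA and 27.6 ± 8.15 with it.

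Ratios taken within a library do not depend on its size factor and set related genes side by side. The ratio of IRS2 to IRS1 per kilobase in 769-P was 2.60 and 2.98 with BCAA and 20.2 and 20.3 without. In CAKI-1 it was 0.497 and 0.557 with BCAA and 0.790 and 0.759 without. IRS2 was thus the more abundant substrate in every 769-P library and IRS1 in every CAKI-1 library, and the ratio was lower with BCAA in both lines. The ratio of TXNIP to ARRDC4 moved little in 769-P, where it was 13.1 and 13.0 with BCAA and 14.7 and 15.3 without. In CAKI-1 it ranged from 36.4 to 66.4, and the conditions overlapped. INSR stayed below IGF1R in all 8 libraries, at 0.384 and 0.424 of its level with BCAA in 769-P and at 0.484 and 0.579 without. In CAKI-1 the ratio of INSR to IGF1R ran from 0.165 to 0.273, lower in both libraries with BCAA. FOXO1 and FOXO3 were near parity in 769-P with BCAA (1.07 and 0.995) and FOXO1 was the lower without (0.717 and 0.649), whereas in CAKI-1 the ratio was between 0.0672 and 0.109.

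TXNIP, ARRDC4 and IRS2 varied most among the 10 genes across libraries. For each, the 5 nearest of 11813 genes were taken by the root mean square distance of log2(normalised count + 1), centred in each line, over the 8 libraries. Nearest to TXNIP were PPP1R15A (distance 0.0898), ZFAS1 (0.143), DDIT3 (0.168), TRIB3 (0.172) and NDRG1 (0.181). PPP1R15A, a phosphatase subunit of the stress response, had log2 fold changes of -2.54 in 769-P and -0.96 in CAKI-1. Nearest to ARRDC4 were DYSF (0.181), the asparagine synthetase gene ASNS (0.182), GAS5 (0.183), PLEKHG1 (0.189) and CD55 (0.192). Nearest to IRS2 were the amino acid transporter subunit SLC3A2 (0.0832), the glucose transporter SLC2A1 (0.108), PSAT1 of serine synthesis (0.109), NCOA7 (0.110) and the tryptophanyl-tRNA synthetase WARS (0.112). SLC3A2 had log2 fold changes of -1.97 in 769-P and -0.04 in CAKI-1. The distances describe 8 libraries that share 2 lines and 2 conditions.

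The counts of the 4 pathway lists stand beside the shares of all tested genes, which were 20.3% higher and 18.2% lower in 769-P and 10.8% and 9.05% in CAKI-1. Of 23 insulin, PI3K and AKT genes downstream of the receptors, 21 were tested in 769-P, where 9 were called higher, 7 lower and 5 not, and the median log2 fold change was 0.10. In CAKI-1, 21 were tested in limma, and 9 were higher, 0 lower and 12 not called, with a median of 0.15; edgeR also called 0 lower, and 2 were lower at an unadjusted p under 0.05 in limma. At the interaction, 5 of 20 were further down in 769-P and 1 further up, beside 10.1% and 10.9% of all genes. PIK3R3, a regulatory subunit of PI3K, rose in both lines, by 1.63 in 769-P (adjusted p = 7.96e-06) and by 1.02 in CAKI-1 (adjusted p = 0.00136). GRB14, an inhibitor that binds the insulin receptor, rose by 1.07 in 769-P (adjusted p = 6.38e-07), with normalised counts of 1479 and 1461 with BCAA and 655 and 746 without. Its relative GRB10 fell by 0.89 in 769-P (adjusted p = 4.96e-08) and the receptor phosphatase gene PTPRF fell by 0.74 (adjusted p = 4.86e-07). In CAKI-1, GRB14 (0.22), GRB10 (-0.16) and PTPRF (0.04) were not called.

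Among the other PI3K subunits, the catalytic genes PIK3CA (-0.40) and PIK3CD (-0.69) fell in 769-P and were not called in CAKI-1 (-0.12 and -0.01). PIK3CB was not called in either line (0.10 and 0.15), and PIK3R1 rose in both (0.32 and 0.28). PIK3R2 was tested in CAKI-1 alone and was not called (-0.93), on very few reads. AKT1 (0.18 and 0.40) and AKT2 (0.30 and 0.25) rose in both lines.

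Of 11 genes listed for the IGF axis around IGFBP3, 9 were tested in 769-P, with 1 higher, 3 lower and 5 not called (median log2 fold change -0.18). In CAKI-1, 8 were tested, with 2 higher, 2 lower and 4 not called (median 0.06). The ligand gene IGF2 was abundant only in CAKI-1, where its normalised counts were 7803 and 8001 with BCAA and 5417 and 4826 without. It rose there by 0.63 (adjusted p = 7.23e-05), and in 769-P it had at most 18.2 in any library and was not called (1.23). IGF2R, which clears IGF2, fell by 0.64 in 769-P (adjusted p = 1.52e-06) and by 0.28 in CAKI-1 (adjusted p = 0.029). IGFBP2 rose by 1.45 in 769-P (adjusted p = 1.49e-06) and was not among the genes listed for CAKI-1. PAPPA, a protease of IGF-binding proteins, fell by 0.98 in 769-P (adjusted p = 0.0445), at normalised counts of at most 65.8, and was not called in CAKI-1 (-0.37). IGFBP1 was not called in either line (-0.20 and 1.29).

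Among other FOXO factors and FOXO targets, CITED2 was lower and CAT higher with BCAA in both lines, both named after their values were seen. In 769-P, 21 of 23 were tested, and 9 were higher, 3 lower and 9 not called, and the median log2 fold change was 0.23. In CAKI-1, 20 were tested, and 1 was higher, 6 lower and 13 not called, with a median of -0.20. At the interaction, 8 of 20 were further up in 769-P and 3 further down, beside 10.9% and 10.1% of all genes. TNFSF10, the gene of the death ligand TRAIL, rose by 1.44 in 769-P (adjusted p = 4.82e-10), with normalised counts of 18885 and 19691 with BCAA and 6905 and 7291 without. SESN3, a sestrin, rose by 2.32 there (adjusted p = 0.00241) at normalised counts of at most 35.9. GADD45A, a growth arrest gene, fell by 1.504 (adjusted p = 5.00e-10) and SOD2, the mitochondrial superoxide dismutase gene, fell by 1.37 (adjusted p = 7.16e-10). In CAKI-1 none of these 4 was called in limma, with values of -0.03 for TNFSF10, 0.51 for SESN3, -0.13 for GADD45A and -0.27 for SOD2. FOXO4 was not called in 769-P (0.05) and fell by 0.43 in CAKI-1 (adjusted p = 0.0246), and PDK4 was not called in either (0.48 and -0.41).

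In the MondoA network and among the other arrestins, 13 of 14 genes were tested in each line. In 769-P, 2 were higher, 7 lower and 4 not called (median log2 fold change -0.22), and in CAKI-1, 1 was higher, 3 lower and 9 not called (median -0.06). SLC2A1, the gene of the glucose transporter that TXNIP acts on, fell by 2.45 in 769-P (adjusted p = 5.59e-11), from 20773 and 20635 without BCAA to 4022 and 3575 with it. In CAKI-1 SLC2A1 was not called (-0.06). HK2, the hexokinase that makes glucose 6-phosphate, fell by 1.26 in 769-P (adjusted p = 1.25e-08) and was not called in CAKI-1 (0.22). The MondoA target KLF11 fell in both lines, by 1.01 and 0.42 (adjusted p = 1.84e-07 and 0.00216). The arrestin gene ARRDC3 also fell in both, by 0.94 and 0.31 (adjusted p = 1.62e-08 and 0.0194). ARRDC2 was not called in either line (-0.13 and 0.01), and nor was MLX, the partner of MondoA (-0.15 and -0.06). MLXIPL, the relative of MLXIP known as ChREBP, had few reads and was not called (0.67 and -0.19).

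**Figure D4:**
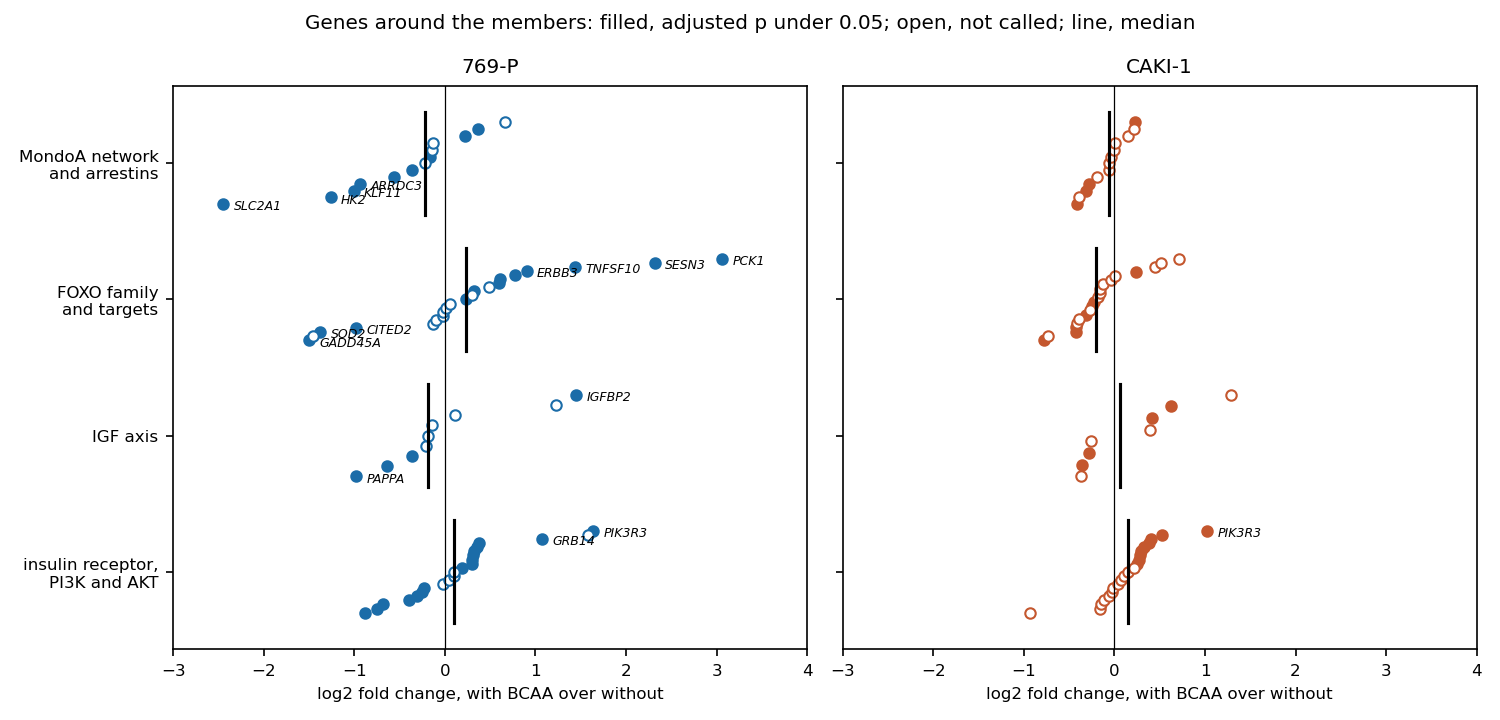
Log2 fold change with BCAA (horizontal axis) of the tested genes on the 4 pathway lists, 769-P on the left and CAKI-1 on the right. Filled circles had an adjusted p under 0.05, open circles did not, the black line is the list's median, and names are given for called genes beyond 0.9. SLC2A1 at -2.45 is the lowest in 769-P, and PIK3R3 is the named gene in CAKI-1.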

How the data were processed

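The authors deposited 1 table per cell line whose signal values are the reads on each gene, scaled by a size factor of the library. The submitters' processing notes name Trim Galore, TopHat2 2.1.0, SAMtools 1.3.1, HTSeq 0.6.0, DESeq and DESeq2 with the build hg38. All values (100%, within 0.02 of a whole number) gave whole reads. Symbols and exon lengths came from GENCODE 29. Genes with a mean of at least 1 were tested on log2(value + 1) within each line by limma 3.58.1 in R 4.3.3, using eBayes with a trend and Benjamini-Hochberg adjustment at 0.05; fold changes on this scale understate those of low genes. The interaction used genes tested in both tables. Alternatives were other pseudocounts, filters and scalings, a replicate block, 1 spread over 8 libraries, left-out libraries, a fold change of at least 2, edgeR 4.0.16, DESeq2 1.42.0 and thinned reads. edgeR on the recovered reads called 4874 genes higher and 3920 lower in 769-P, and 2237 higher and 2160 lower in CAKI-1. Reads were simulated with a log2 fold change of 1 in 200 genes, drawn from those with a mean of at least 50 in both lines. Of these, limma recovered 97% in 769-P (6 false calls), 94.5% in CAKI-1 (8) and 86.5% for the difference (12). Smaller changes, and changes in lower genes, were not simulated. Far fewer genes were changed in the simulation than were called in the data, so its false calls need not carry over to these fits. Replicates differed by more than sampling noise (chi-square per degree of freedom 3.26 to 11.9). The 10 genes and the lists were chosen with earlier results of these data known. Beside the 10 genes, the text names on each list the 4 called genes with the largest change in either line at a mean of at least 10, the subunits and relatives set out with the lists, and the 5 genes nearest to each of 3 genes. INPPL1, PFKFB3, IGFBP7, TXN2, PPARGC1A, BCL6, FBXO32, SESN1, CDKN1B, CAT, RBL2 and CITED2 were added after their values were seen. SOD2 and IGF2 have 2 identifiers each, of which the more abundant was used.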

Additional observations from a re-analysis of the deposited data

Results flagged for a closer look

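A BCAA effect that differed between the cell lines in the interaction test of limma was found for 4 of the 10 genes and for the list genes given here, as the log2 fold change in 769-P minus that in CAKI-1. Over all 19406 genes tested in both lines, 10.1% were further down in 769-P and 10.9% further up. Among the 10 genes the difference was -2.06 for IRS2, -1.55 for ARRDC4, -1.42 for TXNIP and -0.35 for FOXO3. On the insulin list, 5 of 20 genes were further down in 769-P and 1 further up, with -0.72 for GRB10, 0.85 for GRB14, -0.78 for PTPRF, -0.28 for PIK3CA, -0.68 for PIK3CD and -0.60 for INPPL1. On the IGF list, 1 of 8 was further down and 1 further up, with -0.35 for IGF2R and 0.48 for IGFBP7. Among FOXO factors and targets, 8 of 20 were further up in 769-P and 3 further down. The 8 were PPARGC1A (1.504), TNFSF10 (1.48), BCL6 (0.99), FBXO32 (0.64), SESN1 (0.49), CDKN1B (0.39), CAT (0.37) and RBL2 (0.26), and the 3 were GADD45A (-1.37), SOD2 (-1.10) and CITED2 (-0.76). In the MondoA network, 5 of 13 were further down and 1 further up, with -0.63 for ARRDC3, -1.48 for HK2, -0.59 for KLF11, -2.39 for SLC2A1, -0.39 for PFKFB3 and 0.41 for TXN2. Groups of 2 libraries were not examined for outlying samples.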

How the results depend on the processing

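In 769-P, IRS2, TXNIP, ARRDC4 and IGFBP3 kept their calls in all 20 alternatives, and the differences between lines of IRS2, TXNIP and ARRDC4 in all 27. With a fold change of at least 2 asked for in addition, 989 genes were higher and 971 lower in 769-P, with 0 and 3 of the 10 genes, and 303 were higher and 145 lower in CAKI-1, with 0 and 1. Quantile normalization left 1417 genes higher in CAKI-1. edgeR with no filter called 1 of the 10 genes further up in 769-P, which was FOXO1. The labels do not say whether equal replicate numbers mark paired libraries. The deviations of same-numbered libraries had correlations of 0.0095 in 769-P and 0.021 in CAKI-1, which with 2 libraries per condition cannot settle it. With a replicate block, 4692 genes were higher and 4233 lower in 769-P, 2133 and 1803 in CAKI-1, and the counts among the 10 genes stayed at 3 and 6, and 3 and 5.

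With 1 library left out in turn, over limma and edgeR (the latter added after seeing the data), 769-P gave 1173 to 4426 genes higher and 658 to 3531 lower, and of the 10 genes 1 to 3 higher and 3 to 6 lower. The low ends came from limma, for whichever library was missing. CAKI-1 gave 0 to 2762 genes higher and 0 to 2748 lower, and of the 10 genes 0 to 3 higher and 0 to 5 lower, the 0 in each limma fit. The lone remaining library is assumed there to vary like the other group. Between 0 and 2 of the 10 genes were further up in 769-P. The cause was not tested.

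For some effects that were not called with all libraries, the sign turned with a library left out. In 769-P the log2 fold change ran from -0.206 to 0.087 for FOXO1, -0.028 to 0.150 for FOXO4, -0.045 to 1.910 for MLXIPL, -0.535 to 0.145 for IGFBP1 and -0.039 to 0.062 for RBL2. In CAKI-1 it ran from -0.369 to 0.082 for IGF1R, -0.040 to 0.103 for PTPRF, -0.154 to 1.696 for SESN3, -0.335 to 0.258 for TNFSF10, -0.102 to 0.067 for PIK3CD, -0.050 to 0.060 for ARRDC2, -0.158 to 0.041 for MLX, -0.895 to 0.477 for MLXIPL and -0.115 to 0.021 for TXN2. The difference between lines ran from -0.377 to 0.071 for IGF1R, -0.260 to 0.0074 for IGFBP3, -0.098 to 0.036 for MLXIP, -0.010 to 1.476 for IGF2, -0.143 to 0.039 for PIK3CB, -0.0086 to 0.130 for PIK3R1 and -0.180 to 0.022 for MLX. In edgeR, CAKI-1 TNFSF10 was called at 0.246 without replicate 1 with BCAA (adjusted p = 0.0285) and at -0.335 without replicate 2 with BCAA (adjusted p = 0.00298). Thinned reads, also added after seeing the data, gave -0.091 for FOXO4 and -0.022 for RBL2 in 769-P, and -0.021 for ARRDC2 and 0.012 for TXN2 in CAKI-1. Quantile normalization gave -0.026 for RBL2 in 769-P. In CAKI-1, median centring gave 0.0081 for TNFSF10 and 0.030 for PIK3CD, and ARRDC2 was at -0.027 with quantile normalization and at -7.2e-06 in edgeR.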

Other observations

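From the 4 lists, INPPL1 and PFKFB3 were called in opposite directions in the 2 lines, and both were picked out after their values were seen. How often this occurred among all tested genes was not counted. INPPL1, which encodes a phosphatase that removes the lipid signal made by PI3K, had normalised counts in 769-P of 7981 and 7853 with BCAA and 9790 and 9830 without. In CAKI-1 they were 9159 and 8634 with BCAA and 7285 and 7267 without. The groups did not overlap in either line, with log2 fold changes of -0.31 in 769-P (adjusted p = 8.56e-05, limma) and 0.29 in CAKI-1 (adjusted p = 0.00386), and the difference of -0.60 had an adjusted p of 2.87e-05. PFKFB3, which encodes an enzyme that makes the activator of phosphofructokinase, had 15725 and 14706 with BCAA and 16715 and 17247 without in 769-P. In CAKI-1 it had 17925 and 15847 with BCAA and 14285 and 14435 without. The log2 fold changes were -0.16 (adjusted p = 0.0138, limma) and 0.23 (adjusted p = 0.0263), and the difference of -0.39 had an adjusted p of 0.00389.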
